A study of Drosophila melanogaster with 6 samples.

Results

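Drosophila melanogaster has 6 conventional actin genes, Act5C, Act42A, Act57B, Act79B, Act87E and Act88F, and these were picked out of the deposited table by gene symbol. All 6 were found among the 13517 genes listed. They were followed in muscle-enriched lysates of larvae late in the third instar, each pooled from 7 to 10 animals, in 3 control and 3 knockdown samples. In every sample the muscle driver Mhc-Gal4 was combined with a UAS hairpin: UAS-mCherryRNAi (a fluorescent protein gene that flies lack) in the controls, and UAS-twinstarRNAi in the knockdown, which targets twinstar (tsr), the gene of fly cofilin. The driver takes its promoter from the muscle myosin heavy chain gene, so other cells in the lysate were not targeted. The tissue labels call the source adult body wall musculature, while the growth protocol and the series title give the larval stage, which is used here. Numbered samples are labelled as biological replicates.

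Actin monomers polymerise into filaments, which carry the force of myosin in the thin filaments of muscle and form the cortex of all cells. Cofilin severs filaments and returns monomers to the soluble pool. In flies Act5C and Act42A are the cytoplasmic actins, used in nearly all cells. Act57B and Act87E are known as actins of larval body wall muscle, Act88F as the actin of the indirect flight muscles, and Act79B as an actin of adult leg and jump muscles. In mammals the level of free actin monomer controls the cofactor MRTF and, with it, the transcription factor SRF, whose targets include actin genes.

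In the annotation of build dm6 each of the 6 genes encodes 376 codons, with 1128 coding bases. Their differences in length thus lie in the untranslated parts and introns. Act5C (FBgn0000042) lies on chromosome X at positions 5900861 to 5905399, on the plus strand, with 2978 exonic bases and 5 transcripts. Act42A (FBgn0000043) lies on 2R from 6013910 to 6015689 on the minus strand, and Act57B (FBgn0000044) on 2R from 20944021 to 20946431 on the plus strand. Act79B (FBgn0000045) is on 3L from 21985210 to 21987190. Act87E (FBgn0000046) and Act88F (FBgn0000047) share arm 3R, at 13425983 to 13428375 and at 15439969 to 15442177, all 3 on the plus strand. Exonic length in the 5 genes other than Act5C ran from 1595 to 1989 bases.

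Actin coding parts are alike, though how alike was not computed here, so a read can align to more than 1 actin gene. Such reads were left out of the gene rows. How they would divide between the 6 genes is unknown. The row of reads without a unique alignment held 4.80% to 8.60% of all reads in the control samples and 2.27% to 3.16% in the knockdown samples. The part of this difference in the actin values was not tested. Recovered reads in genes numbered 37138289 to 41900871 per sample. Control replicate 2 stood apart, correlating with the other controls at Pearson r of 0.759 and 0.813 across genes, against 0.951 between those controls, so each actin result is also given without it below where its call changed. The targeted gene tsr stood at 20.2% of its control mean in the knockdown (limma, adjusted p = 0.00525), and its groups did not overlap.

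In the tsr knockdown the cytoplasmic actins Act5C and Act42A fell to 57.6% and 45.9% of their control means, while the muscle actin Act87E rose 6.42-fold. Act57B, by far the most abundant actin, was 2.27 times as high on average, but did not pass the test. The adult muscle actins Act79B and Act88F were barely detected in either group. By limma on log2(scaled count + 1), with adjustment over 11720 tested genes, 3 of the 6 actin genes passed an adjusted p-value of 0.05, 1 higher and 2 lower. Among all tested genes 11.6% passed, 4.58% higher and 7.02% lower. In all 6 actin genes the groups did not overlap, with 4 higher and 2 lower in the knockdown. Such separation was seen in 36.4% of tested genes, 16.8% higher and 19.6% lower. Over the 6 actins the median log2 fold change came to 1.07, against 0.06 over all tested genes.

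**Figure D1:**
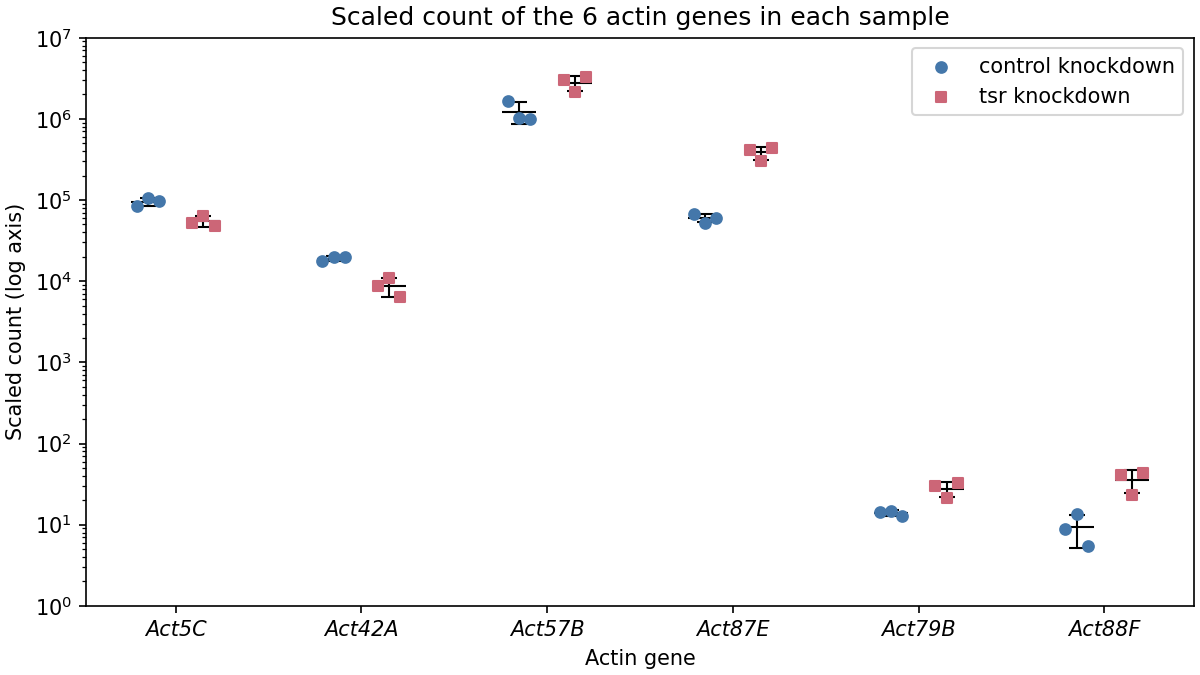
Scaled counts (log axis) of the 6 actin genes in the 3 control samples (circles) and the 3 tsr knockdown samples (squares); horizontal marks are means and bars are SD (n = 3). Act5C and Act42A sit lower in the knockdown and the other 4 genes higher, with Act79B and Act88F below 50 scaled counts in all samples.

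Act5C, the more abundant cytoplasmic actin, had 84368, 104741 and 97050 scaled counts in the controls and 52464, 63862 and 48480 in the knockdown, here as elsewhere in the order of the replicate numbers. Each knockdown sample was below each control. The means were 95386 ± 10288 and 54935 ± 7984 (SD, n = 3 per group), which is -0.80 in log2 fold change (SE 0.17; limma, adjusted p = 0.0389). This call was close to the threshold: none of the 6 fits that left out 1 sample kept it, with adjusted p-values from 0.0515 to 0.150 (limma), and 0.0601 without control replicate 2. Over all tested genes these fits called from 1.57% without knockdown replicate 1 to 28.6% without control replicate 2, against 11.6% in the main fit.

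Act42A, the second cytoplasmic actin, had 17642, 19748 and 19614 scaled counts in the controls and 8694, 11066 and 6385 in the knockdown. The controls lay within a narrow range and the knockdown samples were spread more widely below it. The means were 19001 ± 1179 and 8715 ± 2341 (SD, n = 3 per group), which is -1.16 in log2 fold change (SE 0.21; limma, adjusted p = 0.0256). Without control replicate 3 or without knockdown replicate 1 the adjusted p-value rose to 0.0835 and 0.101 (limma), and in the other 4 such fits the call was kept. Over all tested genes 2.97% passed without control replicate 3 and 1.57% without knockdown replicate 1, against 11.6% in the main fit.

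The cytoplasmic pair ran in parallel across samples. Both genes had the same order of the 6 samples, from knockdown replicate 3, the lowest, through knockdown replicates 1 and 2 and control replicates 1 and 3 to control replicate 2. Act42A amounted to 20.9, 18.9 and 20.2 per 100 Act5C scaled counts in the controls and to 16.6, 17.3 and 13.2 in the knockdown. Act42A thus made up less of the pair in each knockdown sample (two-sided exact permutation test, p = 0.1, the smallest value that 3 against 3 allows; 0.16 after adjustment over 8 ratios). In bulk lysates, fewer cells of a type and less of the RNA per cell cannot be told apart.

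Act57B was the leading actin of the lysates, with 1653114, 1037388 and 1010391 scaled counts in the controls and 3024961, 2149963 and 3243686 in the knockdown. It ranked first among all genes in all 3 knockdown samples and in control replicate 1, and at rank 4 in the other 2 controls. Control replicate 1 was well above the other controls, and knockdown replicate 2 well below the other knockdown samples, though the groups did not overlap. The means were 1233631 ± 363533 and 2806203 ± 578748 (SD, n = 3 per group). The log2 fold change was 1.20 with a 95% interval from 0.03 to 2.37, which did not pass after adjustment (limma, unadjusted p = 0.0458, adjusted p = 0.162).

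Act87E, the other larval muscle actin, had 66992, 52678 and 60916 scaled counts in the controls and 415324, 305968 and 437518 in the knockdown. The lowest knockdown sample was thus well over the highest control. Its log2 fold change was 2.67 with a 95% interval from 2.14 to 3.21 (limma, adjusted p = 0.0039), the 52nd smallest p-value of the 11720. Its rank by abundance moved from between 68 and 92 in the controls to between 11 and 12 in the knockdown. The call was kept in all 6 fits that left out 1 sample, at log2 fold changes from 2.57 to 2.83 with limma adjusted p-values from 0.00652 to 0.0359.

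The intervals of Act57B and Act87E overlap, so their ratio was taken within each sample. Act87E amounted to 4.05, 5.08 and 6.03 per 100 Act57B scaled counts in the controls and to 13.7, 14.2 and 13.5 in the knockdown, a ratio of means of 2.73 (two-sided exact permutation test, p = 0.1, the smallest possible; 0.16 after adjustment over 8 ratios). The knockdown samples were nearly identical in this ratio, although Act57B itself differed between them.

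The annotation places lncRNA:CR45591 (FBgn0267151) on the strand opposite Act87E, sharing 60 exonic bases with it. This non-coding gene had 26.7, 28.0 and 17.2 scaled counts in the controls and 135, 118 and 164 in the knockdown, a ratio of means of 5.79 (limma, adjusted p = 0.0147), a call kept in 2 of the 6 fits that left out 1 sample. It amounted to 398, 532 and 282 per 1000000 Act87E scaled counts in the controls and to 324, 384 and 374 in the knockdown, so the groups overlapped in this ratio (two-sided exact permutation test, p = 0.7, adjusted over 8 ratios 0.7). The strand setting of the counting is not given in the sources used here, so reads within those 60 bases cannot be told apart between the 2 genes.

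**Figure D2:**
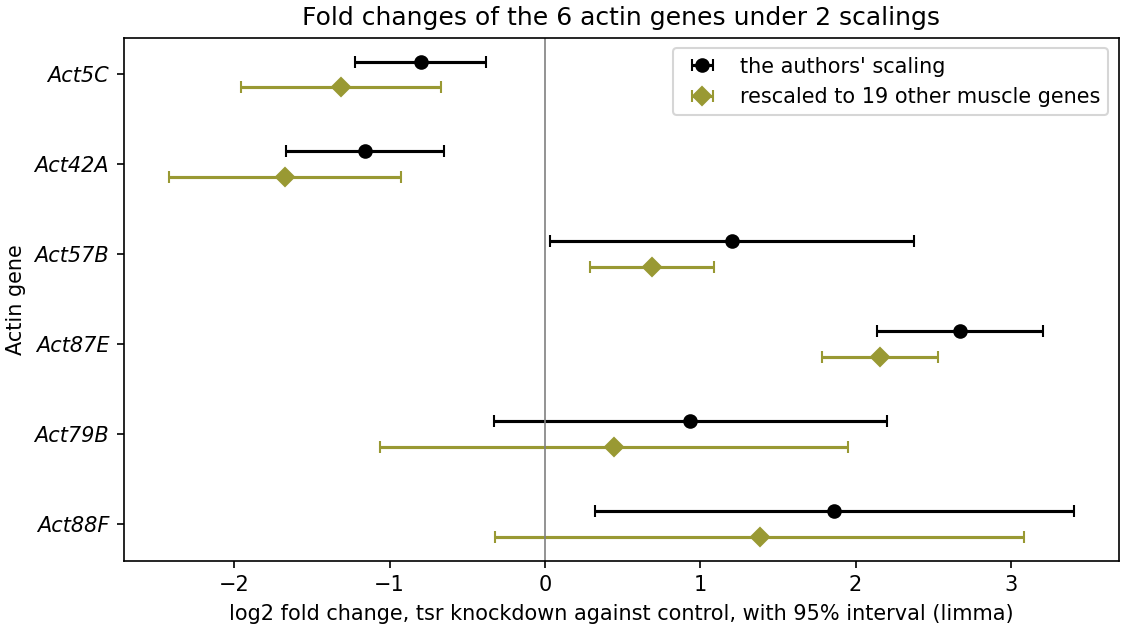
Log2 fold change (tsr knockdown against control) of each actin gene with its 95% interval from limma, under the authors' scaling (circles) and after rescaling the samples to the median of 19 other muscle genes (diamonds). Act87E is at 2.67 and 2.16 and both cytoplasmic actins are below 0 under either scaling.

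The adult muscle actins were near the limit of detection. Act79B had 13, 13 and 14 recovered reads in the controls and 30, 23 and 28 in the knockdown. Act88F had 8, 12 and 6 reads in the controls and 41, 25 and 37 in the knockdown. Neither passed the test, with log2 fold changes of 0.94 for Act79B (95% interval -0.33 to 2.20, limma adjusted p = 0.308) and 1.86 for Act88F (95% interval 0.32 to 3.40, limma adjusted p = 0.113). Act88F did pass without control replicate 2, its highest control, at 2.15 (limma, adjusted p = 0.0237). That fit called 28.6% of all tested genes, with 2426 higher, against 11.6% and 537 higher in the main fit.

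Beside the leading actin these levels were minute. Act79B amounted to 8.74, 14.0 and 12.5 per 1000000 Act57B scaled counts in the controls and to 9.89, 9.83 and 10.0 in the knockdown. Act88F amounted to 5.38, 13.0 and 5.36 per 1000000 in the controls and to 13.5, 10.7 and 13.2 in the knockdown. The groups overlapped in both ratios (two-sided exact permutation tests, p = 0.4 and 0.2, or 0.457 and 0.267 after adjustment over 8 ratios). Whether reads of the abundant actins were counted under these genes was not tested. TpnC41C, a troponin C of adult muscle, was likewise at 14.6 to 44.5 scaled counts in the controls and 48.7 to 72.8 in the knockdown, whereas the larval troponin C genes TpnC47D and TpnC73F together had 95887 or more in every sample. The flight muscle genes fln and TpnC4 were not analysed here.

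The 6 genes together held 4.32%, 2.92% and 3.14% of all gene reads in the controls and 8.62%, 7.02% and 8.61% in the knockdown. Their summed signal was 1822139, 1214583 and 1187989 scaled counts in the controls and 3501514, 2530904 and 3736144 in the knockdown, so every knockdown sample was above every control. The means were 1408237 ± 358696 and 3256187 ± 638976 (SD, n = 3 per group), a log2 ratio of 1.22 (two-sided exact permutation test, p = 0.1, the smallest value possible). Without Act87E the other 5 genes gave a log2 ratio of 1.10 (p = 0.1 by the same exact permutation test). Act57B made up 89.3% to 98.3% of that smaller sum, so the ratio mostly follows Act57B, while Act5C and Act42A were lower.

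Shares of this sum do not depend on how samples are scaled against each other. Act57B held 90.7%, 85.4% and 85.1% of the actin signal in the controls and 86.4%, 84.9% and 86.8% in the knockdown, so its groups overlapped (difference of means -1.01 percentage points; two-sided exact permutation test, p = 0.8). The share of Act87E was 3.68%, 4.34% and 5.13% in the controls and 11.9%, 12.1% and 11.7% in the knockdown. Act5C went the other way, from 4.63%, 8.62% and 8.17% to 1.50%, 2.52% and 1.30%. Act42A held 0.968%, 1.63% and 1.65% of the signal in the controls and 0.248%, 0.437% and 0.171% in the knockdown.

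In Act87E, Act5C and Act42A the groups did not overlap, and each gave p = 0.1 by the two-sided exact permutation test, the smallest value that this design allows (0.2 after adjustment over 6 shares). The difference of means was 7.51 percentage points for Act87E, -5.37 for Act5C and -1.13 for Act42A. Taken as a pair, the cytoplasmic actins went from 8.56% ± 2.57 to 2.06% ± 0.793 of the actin signal (SD, n = 3 per group). Act57B and Act87E scaled counts together were 16.9, 8.76 and 9.18 times those of the cytoplasmic pair in the controls and 56.3, 32.8 and 67.1 times in the knockdown.

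Act79B and Act88F held the smallest shares. Per 1000000 actin reads, Act79B had between 7.93 (95% Wilson interval 4.63 to 13.6) and 12.0 (7.01 to 20.5) in the controls and between 8.35 (5.56 to 12.5) and 8.70 (6.02 to 12.6) in the knockdown. Act88F had between 4.56 (2.09 to 9.95) and 11.1 (6.34 to 19.4) in the controls and between 9.07 (6.15 to 13.4) and 11.7 (8.61 to 15.8) in the knockdown. Each of these intervals covers counting error only, and they overlap between groups. For the other shares the Wilson intervals were at most 0.0665 percentage points to either side.

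**Figure D3:**
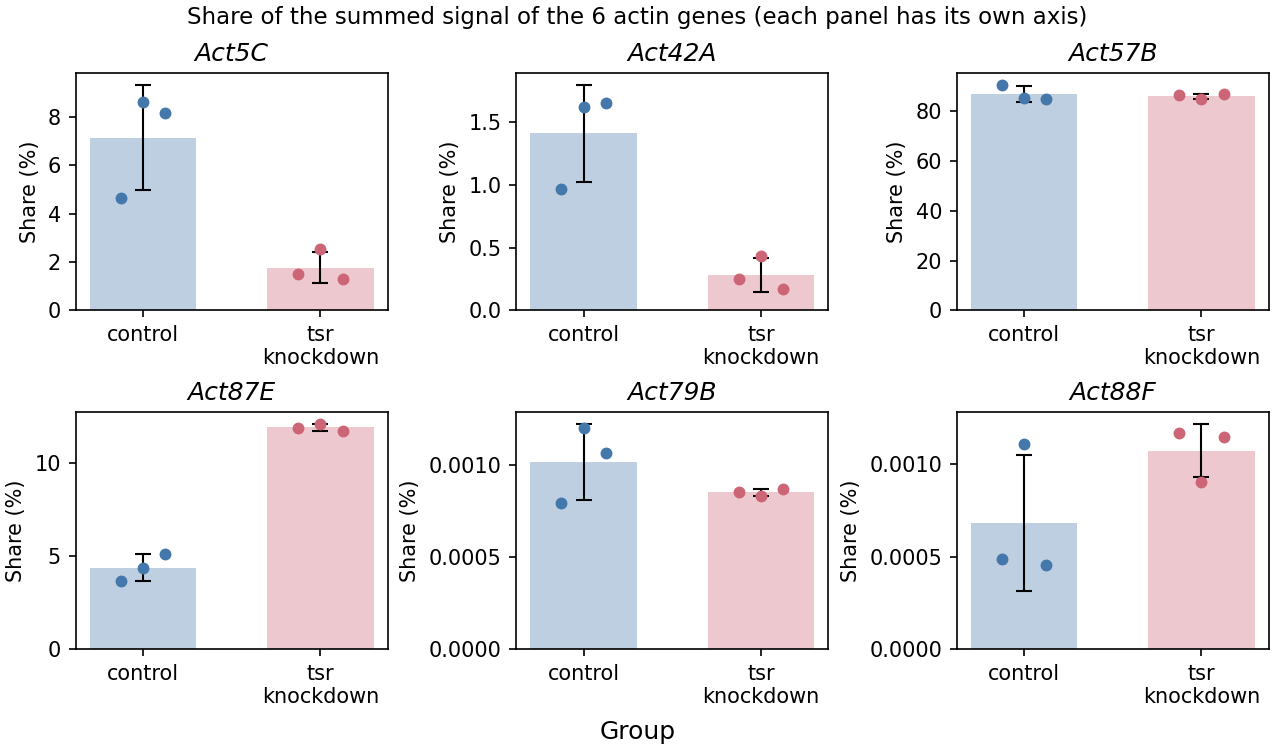
Share of each actin gene in the summed signal of the 6 genes, in percent, per sample (points) with group means (bars from 0) and SD (n = 3 per group); each panel has its own vertical axis. The shares of Act5C and Act42A are lower and that of Act87E higher in all 3 knockdown samples, whereas those of Act57B, Act79B and Act88F overlap between groups.

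Levels of different genes were compared per 1000 exonic bases. In the controls Act57B led with 586074 to 958883 scaled counts per kilobase. Act5C (28330 to 35172) and Act87E (26484 to 33681) followed and changed places between samples, so their order was not separated by the spread. Act42A was lower, at 10850 to 12145, and Act79B (7.81 to 9.00) and Act88F (3.40 to 8.43) came last. In the knockdown Act87E stood alone in second place at 153830 to 219969 per kilobase, above Act5C at 16279 to 21445 and Act42A at 3927 to 6806. Act88F (14.4 to 26.9) was above Act79B (13.0 to 20.1) in each knockdown sample, though the ranges overlapped.

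The muscle actins were then set beside other genes of the sarcomere. Mhc, the muscle myosin heavy chain, ordered the 6 samples exactly as Act57B did, and so did the tropomyosin genes Tm1 and Tm2. The troponin T gene up, also compared, had the order of Act87E instead. Of 19 muscle structural genes other than actins, 18 had a log2 fold change above 0, with a median of 0.63, beside 0.06 over all tested genes, yet only 1 passed the test, where 11.6% of all tested genes did. It was lower: Zasp66, a Z-disc gene, at -0.81 (limma, adjusted p = 0.0492), a call that each fit without 1 sample lost. Mhc was at 0.996 (limma, adjusted p = 0.155). Act57B amounted to 179, 173 and 181 per 100 Mhc scaled counts in the controls and to 211, 196 and 208 in the knockdown. Act87E amounted to 7.26, 8.79 and 10.9 per 100 Mhc in the controls and to 28.9, 27.9 and 28.1 in the knockdown. Both ratios were higher in each knockdown sample (two-sided exact permutation tests, p = 0.1 each, 0.16 after adjustment over 8 ratios).

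Rescaling every sample to the median of these 19 genes lowered the median log2 fold change of all genes from 0.06 to -0.45. Act87E was then at 2.16 and Act57B at 0.69, the latter now past the threshold (limma, adjusted p = 0.00133 and 0.0363). Relative to the median of all genes, Act57B was at 1.14 under both scalings. Such agreement follows from the method for any gene, since rescaling a sample shifts all its genes nearly alike. After the rescaling Act5C and Act42A were at -1.31 and -1.67 (limma, adjusted p = 0.0234 and 0.0182), or -0.86 and -1.22 relative to the median of all genes.

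Among 14 tested thin filament genes, 1 rose and 2 fell, beside 4.58% higher and 7.02% lower among all tested genes, and the median log2 fold change was 0.64. The troponin C gene TpnC25D rose by 0.86 (limma, adjusted p = 0.0262), but after rescaling to the 19 muscle genes it was at 0.34 and did not pass (limma, adjusted p = 0.144). The genes of the capping protein, which closes filament ends, fell, with log2 fold changes of -0.53 for cpa and -0.62 for cpb (limma, adjusted p = 0.0267 and 0.0119). Without knockdown replicate 1 none of these 3 passed (limma, adjusted p from 0.0778 to 0.127). That fit called 1.57% of all tested genes, against 11.6% in the main fit. Tropomyosin and the other named troponin genes did not pass, with Tm1 at 0.80, Tm2 at 0.74, up (troponin T) at 0.78 and wupA (troponin I) at 0.65 (limma, adjusted p from 0.0925 to 0.164).

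Non-muscle myosin II works with the cytoplasmic actins in the cell cortex. Of its 3 genes, 2 passed the test, both lower, beside 7.02% lower among all tested genes. Mlc-c and sqh, its light chains, fell, with log2 fold changes of -0.81 and -0.74 (limma, adjusted p = 0.0176 and 0.0389), and zip, its heavy chain, was at -0.71 (adjusted p = 0.0758), and at -1.22 and past the test after rescaling to the 19 muscle genes (limma, adjusted p = 0.0315). Among 6 genes that handle actin monomers, 2 fell and 0 rose, beside 7.02% lower among all tested genes. Of these 2, tsr is the target of the hairpin, so its fall was set by the design and says nothing about the list. The other was cib (ciboulot), an actin-binding protein of the beta-thymosin family, which fell by 1.51 (limma, adjusted p = 0.0154). Without knockdown replicate 1, where 1.57% of all tested genes passed, the adjusted p-values of Mlc-c, sqh and cib were 0.0895, 0.149 and 0.0782 (limma). chic (profilin) was at -0.38, twf (twinfilin) at -0.34 and capt (cyclase-associated protein) at 0.10, with limma adjusted p-values of 0.147, 0.127 and 0.585. After that rescaling, which put the median of all genes at -0.45, chic (-0.89) and twf (-0.86) passed as well (limma, adjusted p = 0.0305 and 0.0253). All 8 genes of the CCT chaperonin, which folds actin, had log2 fold changes below 0, from -0.48 to -0.06, with 0 passing the test and 0 with separate groups. Without adjustment, 0 of 8 had a p-value under 0.05 by limma, by edgeR's quasi-likelihood test or by DESeq2. After rescaling to the 19 muscle genes 4 of 8 passed with adjustment, all lower. Under that rescaling 17.4% of 11761 tested genes passed, 1823 lower and 227 higher.

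Of 9 actin-related protein genes, 1 fell, Arp1 (a dynactin subunit), by 0.55 (limma, adjusted p = 0.0275, and 0.103 without knockdown replicate 1), and the median was -0.06. A count of 1 in 9 is close to the 11.6% called among all tested genes. The fit without knockdown replicate 1 called 1.57% of them. Of the 3 genes of transcription factors and cofactors linked to actin genes, 1 rose, beside 4.58% higher among all tested genes. This was Mrtf, at 0.48 (limma, adjusted p = 0.0493). That call was lost in all 6 fits that left out 1 sample, and the value was -0.034 after rescaling to the 19 muscle genes. bs, the fly SRF, was at -0.33 and Mef2, a muscle transcription factor, at 0.35 (limma, adjusted p = 0.173 and 0.22). After that rescaling bs was at -0.84 and passed (limma, adjusted p = 0.0324). In that setting 1823 of 11761 tested genes passed as lower, and the median of all genes was -0.45.

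**Figure D4:**
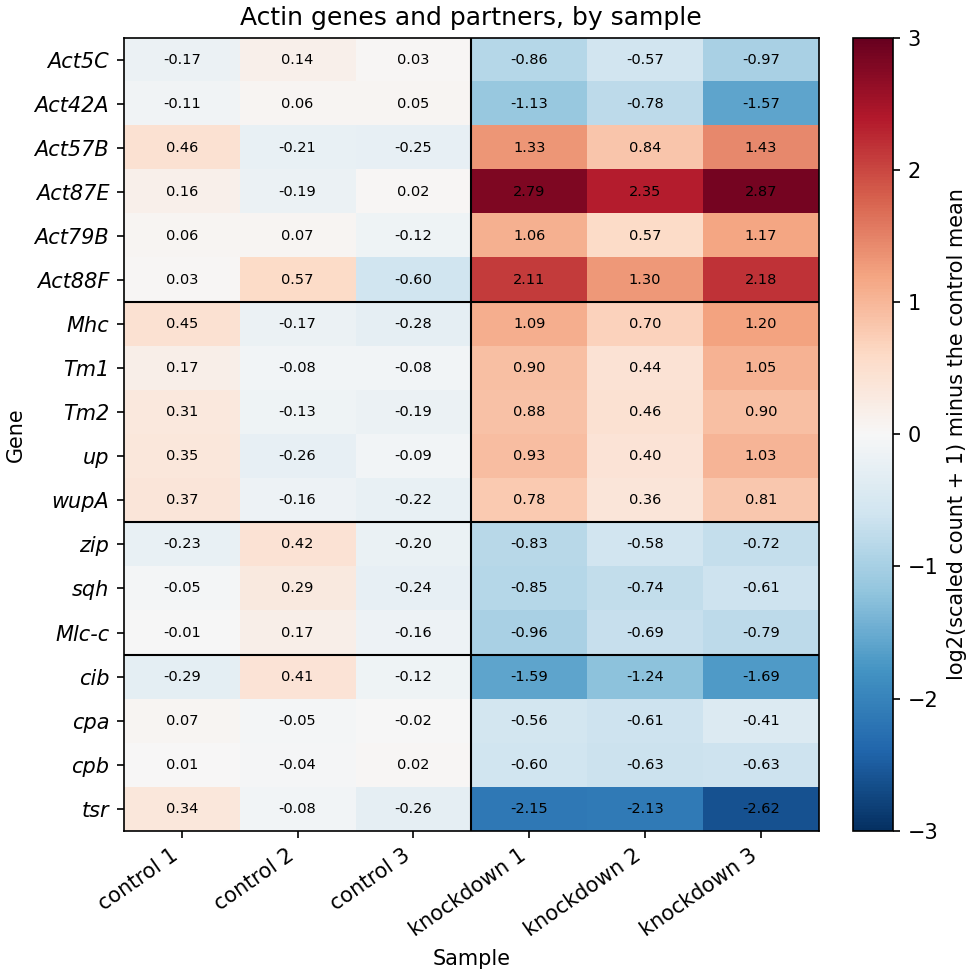
Difference of log2(scaled count + 1) from the control mean, per sample (columns), for the 6 actin genes, 5 sarcomere genes, 3 non-muscle myosin genes and 4 other actin-binding genes including tsr (rows); red is higher and blue lower. Act87E is at 2.35 to 2.87 in the knockdown samples, and Act5C and Act42A are below 0 there together with zip, sqh and Mlc-c.

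Markers of other cells in the lysates moved too. The summed signal of 5 epidermal and cuticle genes was 4065131 to 4934888 scaled counts in the controls and 1274148 to 2113028 in the knockdown, and 2 of the 5, the larval cuticle genes Lcp1 and Lcp2, fell, with log2 fold changes of -4.74 and -4.19 (limma, adjusted p = 0.0029 and 0.0228). The sum of 6 neuronal genes was 6744 to 9644 in the controls and 17941 to 20220 in the knockdown. All 6 were higher in each knockdown sample than in each control, beside 16.8% of all tested genes, with a median log2 fold change of 1.53. By the test 1 of the 6 passed, the synaptotagmin gene Syt1, which rose by 1.07 (limma, adjusted p = 0.0315). The sums of 6 blood cell genes (69533 to 84732 against 72963 to 102951), 5 tracheal genes (133276 to 212203 against 117105 to 151564) and 6 fat body genes (598570 to 1324003 against 1040485 to 1292547) overlapped between groups. In these 3 lists 1 gene (eater), 1 gene (pio) and 2 genes (Fbp1 lower, Lsp1gamma higher) passed. After rescaling to the 19 muscle genes Syt1 (0.56) and Lsp1gamma (0.71) did not pass (limma, adjusted p = 0.159 and 0.069). The sums of the salivary gland and gut genes varied from 31.6 to 103419 and from 740 to 15228 between controls, and 0 of 6 passed in each. Over all tested genes 11.6% passed, 4.58% higher and 7.02% lower. In a list of 5 or 6 genes, a count of 1 is too small to be told apart from these shares. Of the genes called in these lists, Lcp1 and Fbp1 alone passed without knockdown replicate 1, where 1.57% of all tested genes passed. None of these marker genes was at 0 in any sample. The part of these markers in the actin values was not tested.

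The genes whose profiles were most like each actin gene were taken from 4073 other genes with a mean of at least 1000 scaled counts, by Pearson r of log2(scaled count + 1) over the 6 samples. With so few samples in 2 separate groups, high values are common, and r serves here as a description. Nearest to Act87E were stv (starvin, a cochaperone of the BAG family; r = 0.999), CG9757 (0.995) and inaE (0.995). Nearest to Act57B were CG30159 (0.998), Mhc (0.998) and CG4733 (0.997). endos (endosulfine), Nct (nicastrin) and pins were nearest to Act5C (0.992, 0.990 and 0.990), and CG17105, Syp (Syncrip) and CG17598 were nearest to Act42A (0.996, 0.992 and 0.991). CG45078, CG6175 and Sodh-2 were nearest to Act79B (0.991, 0.989 and 0.988), and CG34330, Lsp1gamma and Msp300 to Act88F (0.988, 0.983 and 0.981). Act79B and Act88F had at most 41 reads in any sample, so counting error enters their profiles.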

How the data were processed

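The authors deposited 1 table of scaled counts, a signal made by dividing each gene's read count by 1 size factor per sample. Per the submitters' processing notes, STAR 2.5.0a, Picard and HTSeq 0.5.3 and build dm6 were used. The annotation release and strand setting are not given in the sources used here. Per the labels' protocols, Trizol RNA went into SMARTer libraries (PE50 run). The 4 rows of reads outside genes (19.4% to 27.0% of reads) were left out of the tests. Columns were matched to samples by title. Symbols turned into dates (5) were restored by gene ID (13478 IDs matched).

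Every value was a whole multiple of 1 step per sample (100% within 0.01 of a whole read), so reads were recovered by division, also in knockdown replicate 1, whose step was close to 1. As suits scaled values, genes were tested with limma 3.58.1 (R 4.3.3; lmFit and eBayes with a trend) on log2(value + 1), which understates changes of low genes, for genes averaging at least 10 scaled counts, with Benjamini-Hochberg adjustment and no covariate. On the recovered reads edgeR 4.0.16 with TMM called 1163 genes and DESeq2 1.42.0 called 2827. Shares, ratios and sums were compared by exact permutation. The limma procedure was tested on simulated counts with the same dispersion for all genes and no outlying sample, a simpler setting than these data. Lengths and positions are from the Ensembl 115 annotation (dm6 coordinates). Members, gene lists, tests and the rule for naming genes (all actins, up to 4 called members per list, the 3 most similar profiles per actin) were chosen with earlier results of these data known.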

Additional observations from a re-analysis of the deposited data

How the results depend on the processing

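All 6 actin genes kept the sign of their log2 fold change in every alternative that gave a value (13 on all 6 samples, 12 for Act79B and Act88F, which a minimum mean of 50 removed). The replicate block and the changed filters on low values cannot alter a log2 fold change, only its p-value. Act87E passed in all 13, from 2.16 to 2.77. Act5C (-0.80 reported) missed the threshold without the filter on low values (-0.80, limma adjusted p = 0.0551), with upper quartile (-0.71, 0.0554) and equal-total (-0.78, 0.0649) scaling and with the replicate block. Act57B passed with equal totals (1.22, limma adjusted p = 0.0463), with the muscle list rescaling (0.69) and by DESeq2 (1.18, 0.000298). Act88F passed with array quality weights (2.18, limma adjusted p = 0.0494) and by DESeq2 (1.95, 0.0271). The causes were not tested. Leaving out 1 sample gave log2 fold changes of -0.91 to -0.71 for Act5C, -1.35 to -0.95 for Act42A, 1.08 to 1.43 for Act57B and 1.56 to 2.15 for Act88F.

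With the replicate block, which leaves the values themselves unchanged, Act87E at 2.67 passed (limma adjusted p = 0.0423). Act42A at -1.16 and Act5C at -0.80 missed the threshold (limma adjusted p = 0.0807 and 0.112). For the summed signal at 1.22 the exact sign-flip test gave p = 0.25, the smallest for 3 pairs. Deviations of same-numbered samples correlated at -0.46, -0.0322 and 0.192, so the numbers were not treated as pairs. Per length, the share difference was -3.24 percentage points for Act5C and 6.61 for Act87E. Among the 5 genes other than Act87E, the share of Act57B differed by 6.62 points, the sign opposite to that in the full sum. After the muscle list rescaling the summed log2 ratio was 0.70, and 0.59 without Act87E.

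For the named genes other than actins, these alternatives were chosen after the data were seen. Rescaling to the muscle list reversed capt (-0.41), Mrtf (-0.034), Mef2 (-0.17) and TpnC73F (-0.38), with the median of all genes at -0.45; chic, twf, zip and bs then passed, lower, and TpnC25D, Syt1 and Lsp1gamma no longer did. Of the 6 fits without 1 sample, tsr, Lcp1 and Fbp1 passed in 6, cpb in 4, cib, Mlc-c, cpa and pio in 3, TpnC25D, Arp1, Lcp2 and eater in 2, and sqh, Syt1 and Lsp1gamma in 1; the fit without knockdown replicate 1 lost each of the genes listed after Fbp1.

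Over all genes, 537 higher and 823 lower calls became 665 and 628 with upper quartile scaling, 227 and 1823 with the muscle list, 24 and 88 with the block, 1031 and 1140 with array weights, and 1258 and 1569 by DESeq2. Leaving out 1 sample gave 184 to 3347 calls, the fewest without knockdown replicate 1 and the most without control replicate 2. Depth limits only Act79B and Act88F, with at most 41 reads.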
